A study of Yarrowia lipolytica with 9 samples.

Results

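The native enzymes ERG13, HMG1, IDI1, ERG20 and GGS1 make the precursors of lycopene in the oleaginous yeast Yarrowia lipolytica, and their transcripts were followed across 3 engineered strains. They were chosen by accession, as ERG13 (XM_506052.1, locus YALI1_F38116g), HMG1 (XM_503558.1, YALI1_E05731g), IDI1 (XM_504974.1, YALI1_F06018g), ERG20 (XM_503599.1, YALI1_E06759g) and GGS1 (XM_502923.1, YALI1_D21022g). These 5 are among 6366 features in the deposited tables, and all 5 were among the 6147 features with enough counts to be tested. RNA sequencing was done on 3 libraries each of yl_12, yl_11 and yl_10, 9 in all. Per the labels, all 3 strains are built on Y. lipolytica ATCC 201249 and were transformed with heterologous genes, and all were grown in flasks for 72 h at 28 °C and 250 rpm. Which heterologous genes each strain carries, whether a strain is 1 clone, and which strain makes more lycopene are not given in the labels. Reads from an added copy of a native gene and from its resident copy would be counted in the same row. The labels name no control strain, so each fold change is named by its 2 strains.

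Lycopene is an isoprenoid, and yeasts make isoprenoids from acetyl-CoA through the mevalonate pathway. HMG-CoA synthase (ERG13) joins acetyl-CoA to acetoacetyl-CoA, and HMG-CoA reductase (HMG1) reduces the product to mevalonate, the step best known as rate-limiting in the Saccharomyces cerevisiae pathway. Isopentenyl diphosphate isomerase (IDI1) interconverts the building blocks of the pathway, farnesyl diphosphate synthase (ERG20) joins them into the precursor of sterols, and geranylgeranyl diphosphate synthase (GGS1) extends that product into the substrate of carotenoid synthesis. Yarrowia lipolytica makes no lycopene of its own, so engineered strains need added genes after GGS1. The roles of the first 4 are best known from Saccharomyces cerevisiae. The names come from the list that chose the accessions, as the deposited tables and the gene table carry no product names. The data check them only through length. The coding lengths behind the FPKM values (fragments scaled to transcript length and library total) were 1341 bp for ERG13, 3000 bp for HMG1, 813 bp for IDI1, 1035 bp for ERG20 and 984 bp for GGS1. Each lies in the range set for it, 2900 to 3100 bp for HMG1 and 700 to 1500 bp for the others. Each also equals the length in the RefSeq gene table, which shows what length the FPKM used and does not test the name.

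Libraries held between 7035777 and 16424183 counts, and the factors that correct for RNA composition (TMM) lay between 0.970 and 1.03. In each strain the library least like the other 2 was yl_12 replicate 3, yl_11 replicate 1 and yl_10 replicate 3. The deviations of these 3 libraries from their strain means were correlated across the 6147 features, with r from 0.27 to 0.49. Where a call changed without them, both results are given. FPKM ranges and ratios are given with all 9 libraries. Whether the libraries of a strain are separate cultures is not stated, so a p-value here reflects the spread between libraries, which may be technical.

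The 5 enzymes differed in level, with IDI1 at 5.26, 5.19 and 4.77 times ERG20 on average in yl_12, yl_11 and yl_10, and the order was nearly the same in every library. Averaged over the 9 libraries, IDI1 stood at 93.6 ± 6.84 FPKM (SD), HMG1 at 93.0 ± 4.32, GGS1 at 79.5 ± 5.95, ERG13 at 43.0 ± 6.17 and ERG20 at 18.6 ± 2.24. In all 9 libraries GGS1 was below both IDI1 and HMG1, ERG13 was below GGS1, and ERG20 was the lowest. HMG1 and IDI1 could not be ranked, since their ranges overlapped within each strain and HMG1 was the higher in 1 library of yl_12, 2 of yl_11 and 1 of yl_10. Every other pair of enzymes was separate within every strain. Among all tested features, whose median was 37.3 FPKM, ERG20 lay at the 32.9th percentile of level, ERG13 at the 53.3rd, GGS1 at the 68.8th, HMG1 at the 72.2nd and IDI1 at the 72.4th. The lowest level, that of ERG20, rested on 150 to 318 counts per library, so its 95% Poisson interval reached 11.2% to 16.4% to either side. For HMG1, with 2152 to 4705 counts, it reached 2.87% to 4.25%. These intervals cover counting error only.

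**Figure D1:**
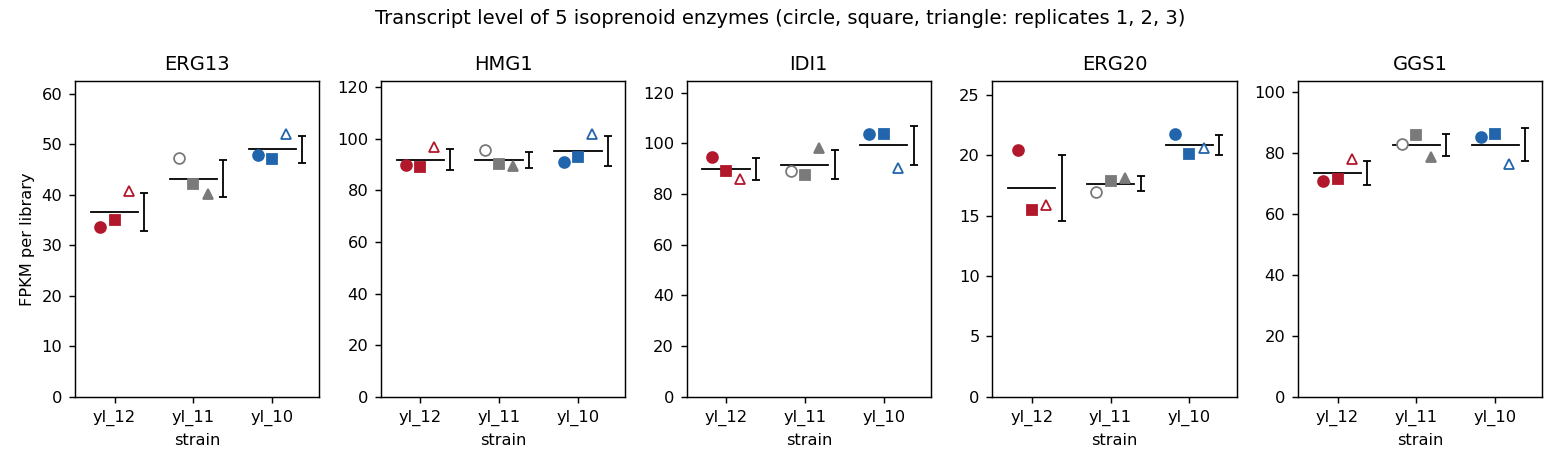
FPKM of each enzyme (one panel each, axis from 0) in the 3 libraries of yl_12, yl_11 and yl_10. Points are libraries, open points the library of each strain that stands apart, lines the strain means and bars the SD over 3 libraries. ERG13 averages 36.6 FPKM in yl_12, 43.2 in yl_11 and 49.1 in yl_10, while HMG1 averages 91.9, 91.8 and 95.3.

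ERG13, the HMG-CoA synthase, was the only 1 of the 5 enzymes with a called difference when all 9 libraries were used, and it was lower in yl_12 than in yl_10. Its level was 33.7, 35.1 and 40.9 FPKM in the yl_12 libraries, 47.3, 42.2 and 40.2 FPKM in the yl_11 libraries, and 47.9, 47.1 and 52.1 FPKM in the yl_10 libraries. All yl_12 libraries lay below all yl_10 libraries, whereas the yl_11 libraries overlapped with both. In yl_12 ERG13 stood at 0.776 times its level in yl_10 (95% interval 0.676 to 0.890), which is -0.37 on the log2 scale (SE 0.091) with an adjusted p = 0.017 over all 6147 features in edgeR's quasi-likelihood test. Fold changes from edgeR rest on TMM-scaled counts, whereas FPKM values are scaled to library totals alone. The yl_12 libraries stayed below the yl_10 libraries with TMM-scaled FPKM, a separation that 31.5% of all features showed in either direction. ERG13 was also called in the F test among the 3 strains (adjusted p = 0.042).

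The ERG13 call between yl_12 and yl_10 depended on some single libraries. It was lost without yl_12 replicate 1 (log2 fold change -0.31, adjusted p = 0.077), without yl_12 replicate 2 (-0.33, 0.072) and without yl_10 replicate 3 (-0.31, 0.052). Without the 3 libraries that stand apart the difference was -0.41 (adjusted p = 5.3e-06), a choice that by its construction leaves the libraries most alike and hence a smaller spread. The direction was the same in all 19 alternatives tried, with log2 fold changes from -0.45 to -0.31. The call in the F test was lost in 7 of the 9 fits with 1 library left out, with adjusted p = 0.149 and 0.140 without yl_12 replicate 1 or 2, then 0.071 and 0.059 for yl_11 replicates 2 and 3, and 0.086, 0.066 and 0.085 for yl_10 replicates 1, 2 and 3.

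**Figure D2:**
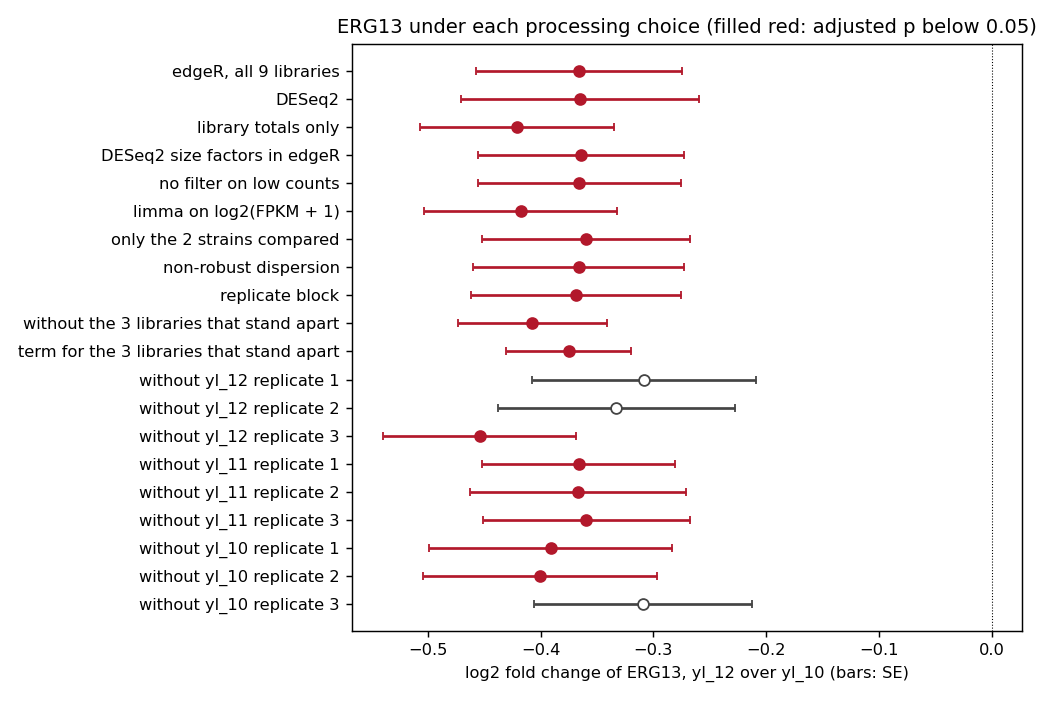
Log2 fold change of ERG13, yl_12 over yl_10, under edgeR with all 9 libraries (top) and the 19 alternatives, with bars for the SE. Filled red points passed an adjusted p of 0.05, and the 3 open points, each with 1 library left out, did not; all points lie between -0.45 and -0.31.

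The mean ERG13 level of yl_11 was intermediate, and neither step was called. Between yl_12 and yl_11 the log2 fold change was -0.21 (SE 0.090, 95% interval -0.41 to -0.018, adjusted p = 0.200 in edgeR). It was called without yl_12 replicate 3 (-0.31, adjusted p = 0.031), without the 3 libraries that stand apart (-0.23, adjusted p = 0.0085) and with a term for them (-0.21, adjusted p = 0.013). Between yl_11 and yl_10 it was -0.15 (SE 0.090, 95% interval -0.35 to 0.042, adjusted p = 0.373), and no alternative called it. In each strain the highest ERG13 level was in the library that stands apart, above the mean of the other 2 by 0.27 in yl_12, 0.21 in yl_11 and 0.18 in yl_10 on the log2 CPM scale.

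HMG1, the reductase that follows ERG13, showed no called difference between any 2 strains. Its level was 90.0, 89.0 and 96.7 FPKM in yl_12, 95.5, 90.3 and 89.6 FPKM in yl_11, and 90.8, 93.1 and 102 FPKM in yl_10. The ranges of the strains overlapped in every pair. The log2 fold change was 0.0030 for yl_12 over yl_10, where the 95% interval of the fold ran from 0.913 to 1.10. It was 0.032 for yl_12 over yl_11 (fold interval 0.932 to 1.12) and -0.029 for yl_11 over yl_10 (fold interval 0.894 to 1.08). The adjusted p-values in edgeR were 0.985, 0.815 and 0.843. The highest HMG1 level of each strain was, as for ERG13, in the library that stands apart, by 0.14 in yl_12, 0.098 in yl_11 and 0.19 in yl_10 on the log2 CPM scale.

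ERG13 and HMG1 were both high in those libraries, and their ratio within a library varied less than ERG13 alone. The share of all features that were highest in those libraries was not computed, so a link between the 2 enzymes was not tested. The FPKM ratio of ERG13 to HMG1 ranged from 0.375 to 0.423 in yl_12, from 0.449 to 0.495 in yl_11 and from 0.506 to 0.528 in yl_10. The 3 strains did not overlap in this ratio, with means of 0.397 ± 0.024, 0.470 ± 0.023 and 0.515 ± 0.011 (SD, n = 3 each). A ratio within a library does not depend on the scaling between libraries. It was the only 1 of the 10 ratios between the 5 enzymes that separated all 3 strains, and it is described here without a test, as it was noticed among them. Of 6146 other tested features, 2.41% had a ratio to HMG1 that separated all 3 strains. Other ratios separated only 2 strains. HMG1 to GGS1 was 1.24 to 1.27 in yl_12 and 1.05 to 1.15 in yl_11, without overlap, but 1.06 to 1.33 in yl_10. ERG13 to GGS1 was 0.477 to 0.525 in yl_12 and 0.546 to 0.682 in yl_10. ERG20 to GGS1 was 0.204 to 0.230 in yl_11 and 0.233 to 0.270 in yl_10. The share of all features with such a ratio was not computed. For FPKM itself, 27.9% to 34.1% of all features did not overlap between 2 strains. In all 3 pairs of strains 5.97% of all features did not overlap, and 0 of the 5 enzymes were among them.

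**Figure D3:**
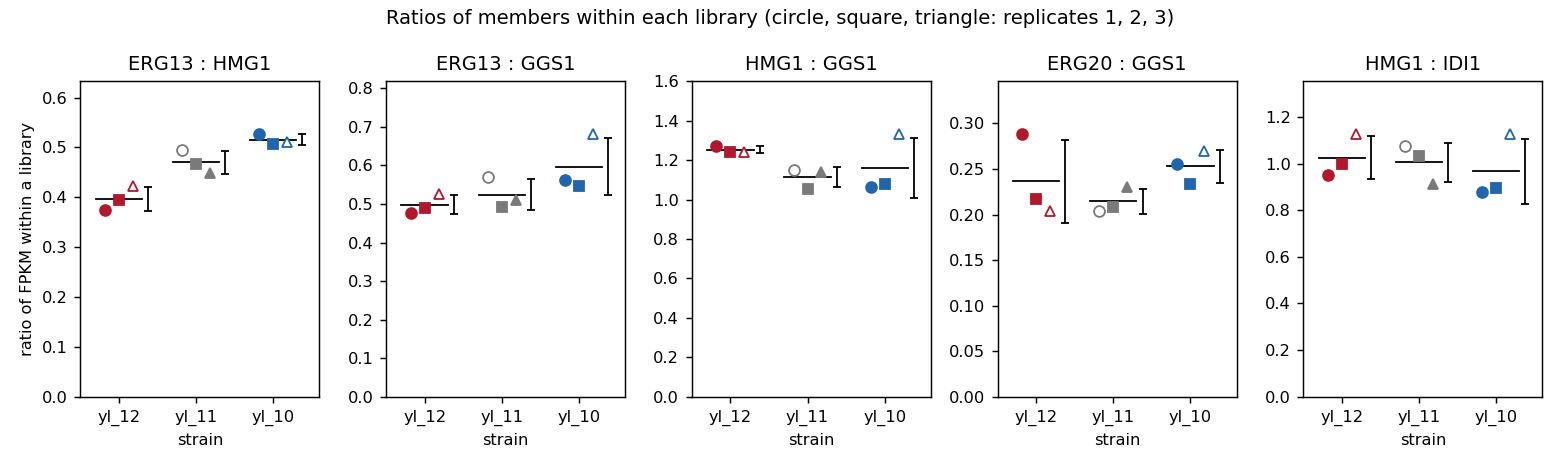
Ratio of FPKM between pairs of enzymes within each library, for yl_12, yl_11 and yl_10, with axes from 0. Points are libraries (open where the library stands apart), lines means and bars the SD over 3 libraries. ERG13 to HMG1 averages 0.397 in yl_12, 0.470 in yl_11 and 0.515 in yl_10 with no overlap, and the other 4 ratios overlap between at least 1 pair of strains.

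IDI1, the isomerase, was not called in any comparison. It stood at 94.6, 89.2 and 85.8 FPKM in yl_12, 89.0, 87.7 and 98.3 FPKM in yl_11, and 104, 104 and 90.4 FPKM in yl_10. Replicates 1 and 2 of yl_10 were higher than every library of the other strains, and replicate 3, which stands apart, was not. The log2 fold change was -0.093 for yl_12 over yl_10 (SE 0.064, adjusted p = 0.385 in edgeR), -0.095 for yl_11 over yl_10 (SE 0.064, adjusted p = 0.440) and 0.0028 for yl_12 over yl_11 (SE 0.063, adjusted p = 0.990). The intervals allow IDI1 in yl_12 to be from 0.851 to 1.03 times its level in yl_10. Without the 3 libraries that stand apart IDI1 was also not called. Its log2 fold change was then -0.11 for yl_12 over yl_10 (adjusted p = 0.147 in edgeR) and -0.13 for yl_11 over yl_10 (adjusted p = 0.142).

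ERG20, the farnesyl diphosphate synthase, had the highest mean in yl_10, but no difference was called. Its level was 20.4, 15.5 and 15.9 FPKM in yl_12, 16.9, 17.9 and 18.1 FPKM in yl_11, and 21.8, 20.1 and 20.6 FPKM in yl_10. The yl_11 libraries lay below the yl_10 libraries without overlap, also with TMM-scaled FPKM, where 27.1% of all features do not overlap. In yl_12, replicate 1 reached the range of yl_10 and the other 2 libraries did not. The log2 fold change was -0.22 for yl_12 over yl_10 (SE 0.11, 95% interval -0.46 to 0.013, adjusted p = 0.202 in edgeR) and also -0.22 for yl_11 over yl_10 (SE 0.11, 95% interval -0.46 to 0.012, adjusted p = 0.276). Without yl_12 replicate 1 the first of these was called, at -0.35 (adjusted p = 0.041). Both comparisons use the same yl_10 libraries. Between yl_12 and yl_11 the log2 fold change was -3.0e-04 (SE 0.11), with an interval from -0.23 to 0.23. The coefficient of variation of ERG20 was 15.9% in yl_12, 3.50% in yl_11 and 4.11% in yl_10, where the medians over all features were 6.32%, 5.16% and 6.85%. The 95% counting interval of ERG20 alone reached 11.2% to 16.4% to either side. The low values, from 3 libraries each, therefore do not show a tightly held level.

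GGS1, whose product is the substrate of carotenoid synthesis, had its lowest mean in yl_12. It stood at 70.7, 71.5 and 77.9 FPKM in yl_12, 83.0, 85.7 and 78.7 FPKM in yl_11, and 85.3, 86.3 and 76.4 FPKM in yl_10. The yl_12 libraries lay below the yl_11 libraries by a narrow gap, which closed with TMM-scaled FPKM, and overlapped with yl_10 through yl_10 replicate 3. The log2 fold change was -0.14 for yl_12 over yl_11 (SE 0.061, 95% interval -0.27 to -0.0047, adjusted p = 0.221 in edgeR), -0.12 for yl_12 over yl_10 (SE 0.062, 95% interval -0.25 to 0.016, adjusted p = 0.235) and 0.019 for yl_11 over yl_10 (SE 0.062, adjusted p = 0.904). Without the 3 libraries that stand apart, GGS1 was called lower in yl_12 than in yl_11 (-0.18, adjusted p = 0.015) and than in yl_10 (-0.21, adjusted p = 0.0045). With a term for these libraries neither was called. The library that stands apart was the highest of the 3 for GGS1 in yl_12 and the lowest in yl_10.

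**Figure D4:**
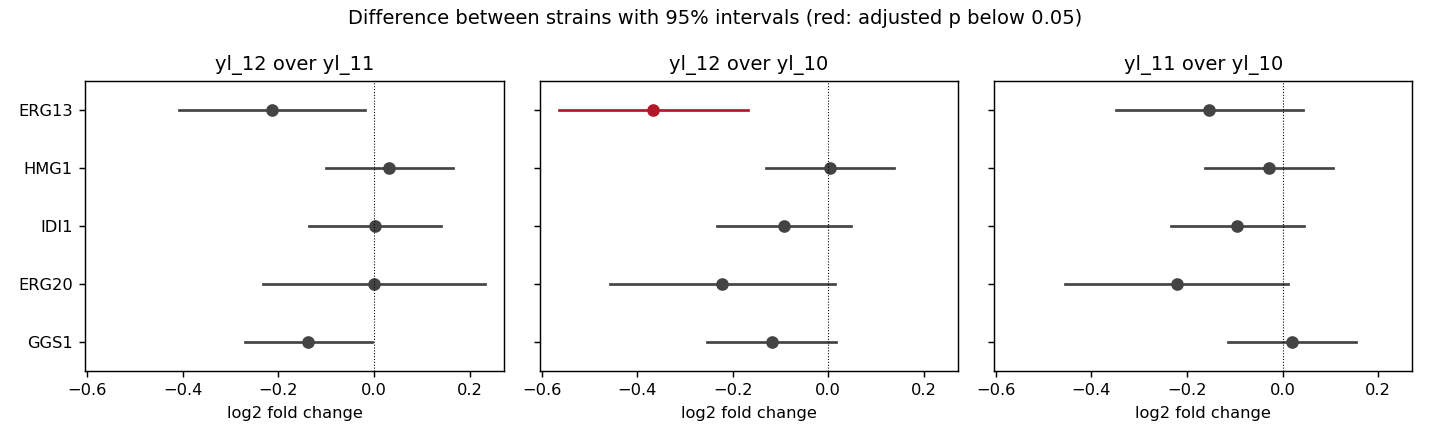
Log2 fold change of each enzyme for yl_12 over yl_11, yl_12 over yl_10 and yl_11 over yl_10 in edgeR with all 9 libraries; bars are 95% intervals not adjusted for multiple tests. ERG13 for yl_12 over yl_10 (red, -0.37) is the 1 difference with an adjusted p below 0.05, and the HMG1 interval includes 0 in each panel.

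Counted over the 5 enzymes, 1 was called between yl_12 and yl_10, ERG13, which was lower in yl_12. In this comparison 14.8% of all tested features were called and 7.81% were called lower, so 1 of 5 is near the share among all features. Between yl_12 and yl_11 edgeR called 0 of the 5, where 7.04% of all features were called. At an unadjusted p below 0.05 there were 2, ERG13 and GGS1, beside 21.0% of all features. DESeq2 and limma also called 0 of the 5, and 7.69% and 5.82% of all features. Between yl_11 and yl_10 edgeR called 0 of 5 beside 4.16% of all features, with 0 at an unadjusted p below 0.05 beside 19.5% of all features. DESeq2 and limma called 0 of the 5 there, and 5.82% and 3.22% of all features. In the F test 1 of 5 was called beside 15.0% of all features. Without the 3 libraries that stand apart, 2 of 5 were called in yl_12 against yl_11 and against yl_10, ERG13 and GGS1, where 24.6% and 31.2% of all features were called.

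The median log2 fold change of the 5 enzymes was -0.12 for yl_12 over yl_10, against -0.0037 for all tested features. For yl_11 over yl_10 it was -0.095 against -3.6e-04, and for yl_12 over yl_11 -3.0e-04 against -0.0015. In absolute size the members' median was 0.12 for yl_12 over yl_10, where all features had 0.11. It was 0.095 against 0.097 for yl_11 over yl_10 and 0.032 against 0.098 for yl_12 over yl_11. FPKM ranges that did not overlap were found for 1 of 5 members in each comparison, GGS1 in yl_12 against yl_11 (29.4% of all features), ERG13 in yl_12 against yl_10 (34.1%) and ERG20 in yl_11 against yl_10 (27.9%). The summed FPKM of the 5 enzymes was 309.5, 300.3 and 317 in yl_12, 332, 324 and 325 in yl_11, and 349, 350.4 and 341 in yl_10. With TMM scaling the sums of yl_12 and yl_11 overlapped, and those of yl_10 remained the highest. The sum was not tested, and how often other sums separate strains was not computed. Most of it comes from HMG1, IDI1 and GGS1, none of which was called with all 9 libraries.

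**Figure D5:**
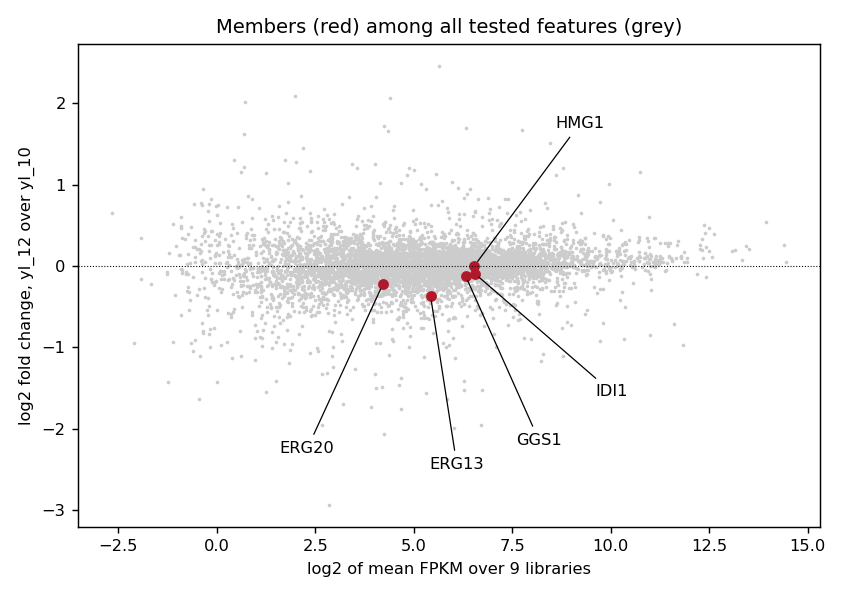
Log2 fold change for yl_12 over yl_10 (vertical) against the log2 of mean FPKM over 9 libraries (horizontal) for the 6147 tested features (grey), with the 5 enzymes in red. The enzymes lie within the main cloud, from 0.0030 for HMG1 to -0.37 for ERG13.

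Over the 9 libraries the profiles of the enzymes lay apart by unequal amounts. After each feature's own mean was removed, the root mean square difference of log2 CPM between 2 of the enzymes ranged from 0.12 (IDI1 and GGS1) to 0.20 (ERG13 and IDI1). For ERG13, 11.2% of 5050 features with a mean of at least 10 CPM lay closer than GGS1, its nearest member. Each pair was taken in a single direction, and this was the lowest of the shares computed. For ERG20 no share was computed at its nearest member, IDI1. For IDI1, 34.5% lay closer than GGS1, and for HMG1, 44.1% lay closer than GGS1 and 72.3% closer than ERG20. The 2 features most like each enzyme were picked by this measure, and none has a name in the tables. For ERG13 they were YALI1_F05979g (XM_504973.1, difference 0.058) and YALI1_E41057g (XM_504778.1, 0.063). The first averaged 53.7 ± 8.36 CPM in yl_12, 60.6 ± 2.85 CPM in yl_11 and 69.6 ± 7.40 CPM in yl_10. For HMG1 they were YALI1_F03855g (XM_504910.1, 0.025) and the feature Novel00375 (0.027), and for IDI1 YALI1_A02974g (XM_499692.1, 0.039) and YALI1_E13514g (XM_503789.1, 0.041). For ERG20 they were YALI1_B09367g (XM_500602.1, 0.067) and YALI1_E12952g (XM_503772.1, 0.068), and for GGS1 YALI1_D08031g (XM_502477.1, 0.042) and YALI1_F36259g (XM_505994.1, 0.043). Features that vary little are near each other by this measure, so these are descriptions of similar profiles over 9 libraries that share strains and depths.

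The genes next to the 5 enzymes gave 2 calls. Of the 10 nearest tested neighbours in the order of the RefSeq gene table, YALI1_F05979g beside IDI1 was lower in yl_12 than in yl_10 (log2 fold change -0.37, SE 0.11, adjusted p = 0.038 in edgeR), as was YALI1_D21023g beside GGS1 (-0.45, SE 0.13, adjusted p = 0.037), beside 14.8% of all features. YALI1_F05979g is the same feature whose profile was nearest to that of ERG13, though it adjoins IDI1. Neither neighbour of ERG13 was called with it. YALI1_F38088g had a log2 fold change of -0.0098 (SE 0.052) and YALI1_F38191g one of -0.043 (SE 0.14) for yl_12 over yl_10. None of the 10 neighbours was called between yl_12 and yl_11 or between yl_11 and yl_10.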

How the data were processed

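Total RNA of 9 libraries, 3 per strain, was sequenced; the labels' protocols give paired ends of 150 bp each. The authors deposited read counts that are not normalised and FPKM values. The deposited FPKM equal the count divided by coding length and library total (largest relative difference 4.97e-15). The submitters' processing notes list HTSeq 0.6.1 and DESeq 1.18.0 without a role. For the aligner, build, annotation and strand setting nothing is given in the sources used here, so reads of overlapping or antisense genes cannot be told apart. Totals were 7035777 to 16424183 counts. As RNA of whole cultures was sequenced, fewer cells expressing a gene and less RNA per cell cannot be told apart.

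Counts were tested with edgeR 4.0.16 in R 4.3.3 (quasi-likelihood, robust, TMM, default filter by strain) with all 9 libraries in 1 fit and strain as the only term, after a check on simulated data. Benjamini-Hochberg adjustment ran over 6147 features, with calls below 0.05. Alternatives were DESeq2 1.42.0, limma 3.58.1 on log2(FPKM + 1), other scalings, filters and dispersions, a replicate block and libraries left out. Replicate pairs differed beyond sampling noise (chi-square per degree of freedom 1.72 to 15.4), so none was merged. Accessions, less their version, were looked up in the RefSeq genes of assembly ASM176148v1 for locus tags, lengths and neighbours. The named genes are the 5 enzymes and, for each, the 2 most similar profiles. The neighbours and the ERG13 to HMG1 ratio were added after values were seen. The members, lists and alternatives were chosen with earlier results of these data known. Of 20 other names of the mevalonate and sterol pathways, 0 could be matched to a feature, and they are not analysed here.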

Additional observations from a re-analysis of the deposited data

How the results depend on the processing

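The number of the 5 enzymes called was 1 for yl_12 against yl_10, with 2 on leaving out the 3 libraries that stand apart and from 0 to 1 on leaving out any 1 library (9.95% to 16.1% of all features). Without yl_12 replicate 1 the 1 enzyme called was ERG20, not ERG13. For yl_12 against yl_11 the number was 0, with 2 on leaving out the 3 libraries that stand apart, 1 with a term for them (15.8% of all features) and from 0 to 1 with 1 library left out (3.08% to 11.7%). For yl_11 against yl_10 it was 0 in every alternative. In the F test among the strains it was 1. It was 0 with non-robust dispersion (ERG13 adjusted p = 0.053, 14.5% of all features called), 0 with the replicate number as a block (0.062, 11.5%), 2 without the 3 libraries that stand apart (38.3%) and from 0 to 1 with 1 library left out (8.88% to 20.0%). The causes were not tested. Deviations of same-numbered libraries were correlated with r from -0.35 to 0.27, with both signs. The labels do not say whether the numbers pair the libraries. These correlations cannot decide it, as the libraries that stand apart weigh on them. The block left the ERG13 call between yl_12 and yl_10 in place (log2 fold change -0.37, adjusted p = 0.026).

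Uncalled fold changes near 0, 6 in all, changed sign under some alternatives. For ERG20 in yl_12 over yl_11 the values were 0.0038 in DESeq2, 0.0039 with DESeq2 size factors, 0.0032 without a filter, 0.0018 with only the 2 strains and 0.020 without the 3 libraries that stand apart, and -0.13 to 0.076 with 1 library left out. With library totals and with limma, IDI1 in yl_12 over yl_11 gave -0.027 and -0.028, HMG1 in yl_12 over yl_10 -0.051 and -0.051, and GGS1 in yl_11 over yl_10 -0.0061 and -0.0023. Without the 3 libraries that stand apart, HMG1 and GGS1 in yl_11 over yl_10 gave 0.0041 and -0.025. With 1 library left out the ranges were -0.015 to 0.066 for HMG1 and -0.032 to 0.053 for IDI1 in yl_12 over yl_11, -0.038 to 0.069 for HMG1 in yl_12 over yl_10, and -0.070 to 0.037 for HMG1 and -0.018 to 0.059 for GGS1 in yl_11 over yl_10. Depth limits ERG20 most, with 150 counts in its shallowest library.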
